A study of Mus musculus with 14 samples.

Results

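Genes that mark or maintain blood stem and progenitor cells were followed in the peripheral blood of mouse embryos with an altered Cbfb gene. The 10 genes encode the growth factor receptors Kit and Flt3, the surface proteins Cd34, Prom1, Procr, Cd93 and Ly6a, the cross-linking enzyme Tgm2, and the nuclear proteins Sox4 and Bmi1. They were chosen by symbol, and every probe set that the array annotation gives to 1 of these symbols alone was read. That found 27 probe sets for 9 of the 10 genes among the 45101 of the array table and its 18193 named genes. Ly6a has no probe set under its symbol alone in the annotation used here and was not analysed here.

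All embryos were at E12.5, and each RNA came from pooled blood of 8 to 10 embryos of 1 genotype. The first cross, of Cbfb-MYH11 chimeras with C57/Bl6 females, gave Cbfb+/MYH11 embryos, which carry 1 fusion allele and 1 wild-type Cbfb allele (4 arrays), and littermates without it (WT, 4 arrays). The second cross, of Cbfb+/- parents, gave Cbfb-/- embryos on 3 arrays and, also on 3, littermates that are Cbfb+/+. The labels name no cell-type-specific promoter or Cre, and neither the age nor the strain of the Cbfb+/- parents. Arrays within a group are labelled as technical replicates, so p-values here reflect array-to-array spread, possibly technical alone. They are no measure of the spread between embryos or pools. All 4 groups share 1 estimate of spread, which includes the split of first-cross arrays into pairs described below. The p-values and intervals of the Cbfb-/- comparison therefore carry that split too. All values are log2 RMA signals, of which 1 unit is a change by a factor of 2.

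Cbfb is the partner subunit of the Runx transcription factors, which blood stem cells need in order to form in the embryo. The fusion joins Cbfb to a smooth muscle myosin and is found in a human acute myeloid leukaemia. At this age circulating blood consists mainly of primitive red cells from the yolk sac, with a minority of progenitors, macrophages and megakaryocytes. Several of the 10 genes are active outside blood stem cells: Kit also marks mast cells, Cd34, Procr and Cd93 mark endothelium, Prom1 and Sox4 are active in neural progenitors, and Bmi1 acts in many dividing tissues.

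Embryonic red cell genes averaged between 12.66 and 13.01 on every array. Array medians lay between 4.27 and 4.46. The targeted gene, Cbfb, was at 8.44, 8.56, 6.91 and 7.06 on Cbfb+/MYH11 arrays, against 6.62, 6.57, 8.31 and 8.14 on WT arrays. It was at 7.03, 6.80 and 6.98 on Cbfb-/- arrays, against 6.52, 6.56 and 6.27 on Cbfb+/+ arrays. Its direction thus turned between array pairs, with the fusion arrays above WT in arrays 1 and 2 and below WT in arrays 3 and 4. Whether its probe set lies in the altered stretch is unknown, so it checks no genotype. The arrays of the first cross fell into pairs, 1 with 2 and 3 with 4, in both genotypes. Between pairs, deviations from the group mean correlated at -0.521 to -0.437 across probe sets, and between same-numbered Cbfb+/MYH11 and WT arrays at 0.41 to 0.522. Differently numbered arrays of the same pair correlated at 0.424 to 0.512 between the genotypes. Changes of the members in that cross are therefore also given within each pair, and those of other named genes where the pairs differ by over 1.5 times. The labels say nothing of what the pairs are.

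Tgm2 was the one member that rose in Cbfb+/MYH11 blood, 4.30-fold over WT on its brightest probe set. In Cbfb-/- blood the members that rose were Sox4 (6.14-fold over Cbfb+/+), Prom1 (5.19-fold) and Bmi1 (3.60-fold). Cd34 and Cd93 fell with the fusion, but on dim signals and under only some settings. Kit, Flt3 and Procr were called in neither mutant. A call, higher or lower, needed a Benjamini-Hochberg adjusted p below 0.05 and at least a 1.5-fold change. A probe set is named dim where fewer than 3 of the 14 arrays reach a log2 value of 6, a level that 20.3 to 24.0% of probe sets reached per array. Of the 27 probe sets 12 were not dim, and they belong to Flt3, Prom1, Tgm2, Sox4 and Bmi1. Values are those of a gene's leading probe set, the one brightest on average across arrays, unless another is named. When the arrays were averaged to 6 putative pools, no member was called in either mutant (limma, Tgm2 adjusted p = 0.0633 with the fusion, Prom1 0.998 in Cbfb-/- blood), with 1 of 9 members at an unadjusted p under 0.05 in each.

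Over the leading probe sets, 3 of 9 members were called with the fusion (Tgm2 higher, Cd34 and Cd93 lower), where 13.5% of all probe sets on the array were called (10.5% higher and 2.94% lower). Loss of Cbfb gave 3 called of 9 (Sox4, Prom1 and Bmi1, all higher), where 9.69% of all probe sets were called (6.66% higher and 3.03% lower). Among probe sets that were not dim the background was 35.3% with the fusion and 24.6% in Cbfb-/- blood, so 1 of 5 and 3 of 5 members with such a leading probe set stood against those shares. The median log2 change over the 9 leading probe sets was -0.32 with the fusion and 0.03 in Cbfb-/- blood, beside -0.11 and -0.05 over all genes. By leading probe set, 14.3% of all genes were called higher and 4.12% lower with the fusion. In Cbfb-/- blood 9.09% were called higher and 3.7% lower. These shares are the background for the counts of every gene list below. Over all 27 probe sets, 7 were called with the fusion (5 higher, all of Tgm2, and 2 lower) and 9 in Cbfb-/- blood (7 higher and 2 lower). The Cbfb-/- and Cbfb+/+ arrays did not overlap for 6 of the 9 leading probe sets (Prom1, Sox4 and Bmi1 above, Kit, Flt3 and Tgm2 below), where 39.9% of all probe sets did not. Bulk RNA cannot tell fewer cells of a type from less RNA per cell, here or in any result that follows.

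**Figure D1:**
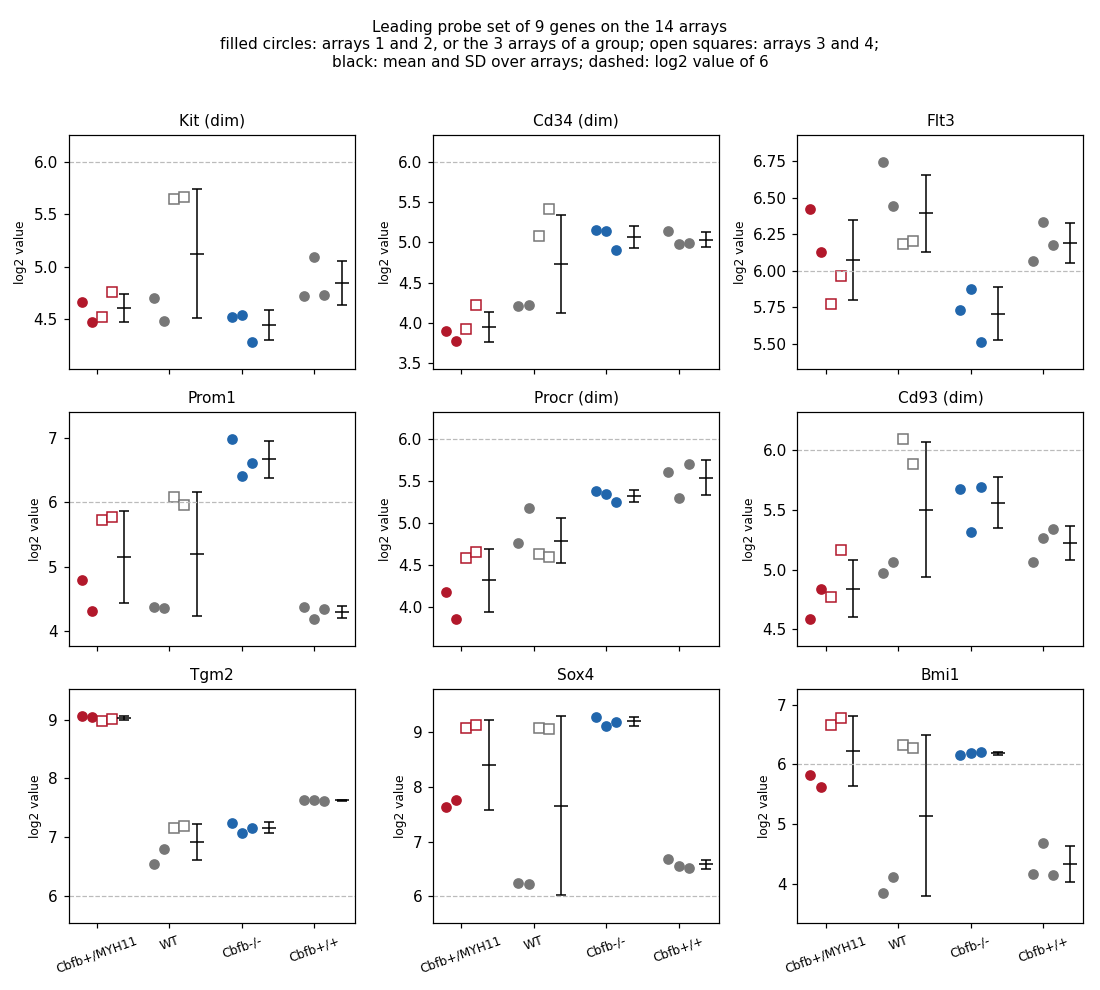
Log2 RMA signal of the leading probe set of each of the 9 measured members, with 1 panel per gene. Points are arrays (Cbfb+/MYH11 and WT, n = 4 each, and Cbfb-/- and Cbfb+/+, n = 3 each), black marks are group means with SD, open squares are arrays 3 and 4 of the first cross, and the dashed line is the log2 value of 6. Tgm2 stands apart in Cbfb+/MYH11 blood at 8.98 to 9.06, and Sox4, Prom1 and Bmi1 stand apart in Cbfb-/- blood from Cbfb+/+ blood, while the WT arrays of these 3 genes split by array pair.

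The nuclear members come first. Sox4, a SoxC transcription factor that is active in lymphoid and neural precursors, had 7.63, 7.77, 9.08 and 9.13 on Cbfb+/MYH11 arrays 1 to 4, against 6.25, 6.23, 9.08 and 9.07 on WT arrays 1 to 4. It had 9.29, 9.12 and 9.19 on Cbfb-/- arrays, against 6.67, 6.55 and 6.52 on Cbfb+/+ arrays. Every Cbfb-/- array was above every Cbfb+/+ array, while WT arrays 3 and 4 lay at the level of Cbfb+/MYH11 arrays 3 and 4 and just below the Cbfb-/- arrays. The Cbfb-/- rise was 2.62 on the log2 scale (95% interval 1.16 to 4.08, limma, adjusted p = 0.0202). The fusion effect, 0.75 (-0.52 to 2.01, adjusted p = 0.355), was not called over all 4 arrays. The Cbfb-/- call was lost without any 1 of the 6 arrays of that cross (2.58 to 2.66, adjusted p = 0.0539 to 0.0649). The fit shares 1 spread, and the SD was 0.08 in each group of that cross but 1.64 in WT, whose arrays split by pair. With only the 2 groups of that cross compared the call was kept, on the spread of technical replicates alone.

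Split by array pair, Sox4 rose by 1.46 with the fusion within arrays 1 and 2 (limma, adjusted p = 7.34e-08), where 20.1% of all probe sets were called. It was at 0.03 within arrays 3 and 4 (adjusted p = 0.876), where 13.3% were called. The effects of the pairs differed by -1.43 (adjusted p = 3.49e-05). Within the WT genotype itself, arrays 3 and 4 were 2.84 above arrays 1 and 2 (adjusted p = 1.91e-10), a contrast in which 15.6% of probe sets were called. Cbfb+/MYH11 arrays 3 and 4 were 1.41 above arrays 1 and 2, with 6.36% of probe sets called. With array numbers as a replicate block, the fusion effect of 0.75 was called (adjusted p = 0.0334), as was the difference from the Cbfb-/- effect, -1.87 (adjusted p = 0.00759, and 0.271 without the block). This block joins 2 unlike pair effects into 1 value.

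Sox4 has 8 probe sets, of which 4 are not dim. Beside the leading one, the others of these gave, for Cbfb-/- against Cbfb+/+, 1.67 (1419155_a_at, adjusted p = 0.0169), 2.07 (1419157_at, adjusted p = 0.033) and 1.18 (1419156_at, adjusted p = 0.0659, not called). These 3 probe sets did not follow the leading one within arrays 1 and 2 of the fusion cross, where their fusion effects were 0.11, 0.21 and -0.12 and none was called. On WT arrays 3 and 4 they too were higher than on WT arrays 1 and 2, by 1.40, 2.21 and 1.30. A dim probe set, 1449370_at, was at 6.27, 6.18 and 5.79 on Cbfb-/- arrays, against 4.85, 4.54 and 4.86 on Cbfb+/+ arrays, with a rise of 1.33 (adjusted p = 4.36e-04). It stayed between 4.36 and 5.15 on all 8 arrays of the first cross, where arrays 3 and 4 were 0.28 above arrays 1 and 2 in each genotype, with neither step called. The other 3 Sox4 probe sets were below 6 on all arrays and were called in neither mutant.

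Bmi1, a core protein of Polycomb repressive complex 1 that blood stem cells need for self-renewal, had 5.82, 5.63, 6.66 and 6.78 on Cbfb+/MYH11 arrays, against 3.86, 4.11, 6.33 and 6.28 on WT arrays. On Cbfb-/- arrays it had 6.16, 6.19 and 6.21, against 4.18, 4.68 and 4.16 on Cbfb+/+ arrays. The Cbfb-/- arrays lay apart from and above their littermates' arrays, and WT arrays 1 and 2 were below all Cbfb+/+ arrays while WT arrays 3 and 4 were slightly above the Cbfb-/- arrays. Bmi1 rose by 1.85 in Cbfb-/- blood (0.66 to 3.03, adjusted p = 0.0382), a call lost without any 1 of the 6 arrays of that cross (1.76 to 2.02, adjusted p = 0.0686 to 0.11). With only the 2 groups of that cross compared it was kept (limma, adjusted p = 3.61e-05), on the spread of technical replicates alone. With the fusion the change was 1.08 (0.05 to 2.10, adjusted p = 0.111), which was called with the replicate block (adjusted p = 0.00595) and without WT array 3 (1.47, adjusted p = 0.0244) or WT array 4 (1.46, adjusted p = 0.0297). Within array pairs it was 1.74 (arrays 1 and 2, adjusted p = 6.15e-07) and 0.42 (arrays 3 and 4, adjusted p = 0.0802). The dim probe set 1448733_at gave 1.64 in Cbfb-/- blood (adjusted p = 0.0247) and had the same high WT arrays, 4.60 and 4.54 on arrays 3 and 4 against 2.94 and 3.36 on arrays 1 and 2. Its fusion change within arrays 1 and 2 was 0.42 (adjusted p = 0.12) and was not called.

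Prom1, the membrane glycoprotein CD133 of stem and neural progenitor cells, had 4.79, 4.31, 5.72 and 5.77 on Cbfb+/MYH11 arrays, against 4.37, 4.36, 6.09 and 5.97 on WT arrays. It had 6.99, 6.42 and 6.61 on Cbfb-/- arrays, against 4.37, 4.18 and 4.33 on Cbfb+/+ arrays. All 3 Cbfb-/- arrays exceeded every other array of the study, and the fusion and WT arrays overlapped. Prom1 rose by 2.38 in Cbfb-/- blood (1.39 to 3.36, adjusted p = 0.00414) and was at -0.05 with the fusion (-0.90 to 0.80, adjusted p = 0.934). The difference between the 2 effects was itself called, at -2.42 (-3.73 to -1.12, adjusted p = 0.023), where 7.52% of probe sets were called (4.72% higher and 2.8% lower). That call was lost without any 1 of 5 of the 6 arrays of the Cbfb-/- cross (adjusted p = 0.0505 to 0.0646). Arrays 3 and 4 of WT were 1.66 above arrays 1 and 2 (adjusted p = 4.49e-06), and within the pairs the fusion change was 0.18 and -0.28, with neither called.

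Sequences before the starts of these genes are shown because Cbfb acts on DNA only through Runx proteins, whose core site was searched in them. They run from 250 bases before to 50 after the start (RefSeq, GRCm38.p6), and capitals mark a Runx core, TGTGGT or TGCGGT, on either strand. Prom1 (chr5:44101687-44101986, minus strand) holds TGTGGT with its first base at -24 from the start. Flt3 (chr5:147400440-147400739, minus strand) holds TGCGGT, printed as its reverse complement ACCGCA, with its first base at -61. Sox4 (chr13:28953650-28953949, minus strand) and Bmi1 (chr2:18676768-18677067, plus strand) hold neither in these windows.
Prom1: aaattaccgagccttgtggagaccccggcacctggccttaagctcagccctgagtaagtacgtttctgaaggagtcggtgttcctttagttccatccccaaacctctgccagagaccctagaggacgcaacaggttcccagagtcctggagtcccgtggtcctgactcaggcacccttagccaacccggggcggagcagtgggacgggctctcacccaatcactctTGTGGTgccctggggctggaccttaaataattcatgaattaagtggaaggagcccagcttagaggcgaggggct
Sox4: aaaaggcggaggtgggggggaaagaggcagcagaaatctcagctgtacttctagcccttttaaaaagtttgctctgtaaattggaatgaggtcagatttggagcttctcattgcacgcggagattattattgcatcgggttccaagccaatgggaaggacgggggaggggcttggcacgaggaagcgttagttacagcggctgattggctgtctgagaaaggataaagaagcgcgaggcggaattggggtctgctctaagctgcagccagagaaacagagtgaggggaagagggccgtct
Bmi1: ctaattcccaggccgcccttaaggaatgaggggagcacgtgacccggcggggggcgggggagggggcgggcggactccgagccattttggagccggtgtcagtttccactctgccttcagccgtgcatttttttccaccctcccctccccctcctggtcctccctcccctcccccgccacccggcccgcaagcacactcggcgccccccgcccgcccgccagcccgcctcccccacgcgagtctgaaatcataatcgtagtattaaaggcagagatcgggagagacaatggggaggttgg
Flt3: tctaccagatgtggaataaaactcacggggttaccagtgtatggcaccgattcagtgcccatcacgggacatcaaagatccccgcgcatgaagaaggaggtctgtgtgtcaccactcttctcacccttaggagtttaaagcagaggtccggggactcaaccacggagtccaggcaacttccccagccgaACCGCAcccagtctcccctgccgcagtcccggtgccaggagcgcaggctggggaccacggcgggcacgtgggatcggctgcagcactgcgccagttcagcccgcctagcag
Windows were found for 7 of the 10 members, 9 in all. TGTGGT lay in 1 of the 9, and in 16.8% of all 32851 windows of this length. TGCGGT lay in 1 of the 9, and in 6.45% of all windows. These are matches of letters, and the study measured no binding.

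Markers of neural tissue were read beside Sox4, Prom1 and Bmi1. Over 10 neural genes the mean log2 signal was 5.33, 5.27, 6.90 and 6.97 on Cbfb+/MYH11 arrays, against 4.10, 4.14, 5.38 and 5.33 on WT arrays. It was 7.22, 7.10 and 7.21 on Cbfb-/- arrays, against 4.51, 4.37 and 4.33 on Cbfb+/+ arrays. The list was thus high in Cbfb-/- blood and, in both genotypes of the first cross, higher on arrays 3 and 4, as the 3 members were. Between the genotypes, the list was higher with the fusion in both array pairs. Within arrays 1 and 2 the fusion changes of Sox4, Bmi1 and Prom1 were 1.46, 1.74 and 0.18, the last not called. Within arrays 3 and 4 they were 0.03, 0.42 and -0.28, and none was called. Of the 10 genes 8 rose in Cbfb-/- blood (none fell), led in adjusted p by Nes (1.11, adjusted p = 8.48e-05), Lhx2 (3.85, adjusted p = 1.06e-04) and Fabp7 (3.98, adjusted p = 1.19e-04), and 4 rose with the fusion. Mesenchyme markers (8 genes) averaged 5.90 to 6.90 on Cbfb+/MYH11 arrays and 6.23 to 7.78 on WT arrays, again higher on arrays 3 and 4 of both. They averaged 7.07 to 7.21 on Cbfb-/- arrays and 6.78 to 6.82 on Cbfb+/+ arrays, and 1 of 8 was called, Dcn, which fell with the fusion (-0.95, and -1.23 and -0.66 within the array pairs). The part of either tissue in the values of Sox4, Prom1 and Bmi1 was not tested.

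**Figure D2:**
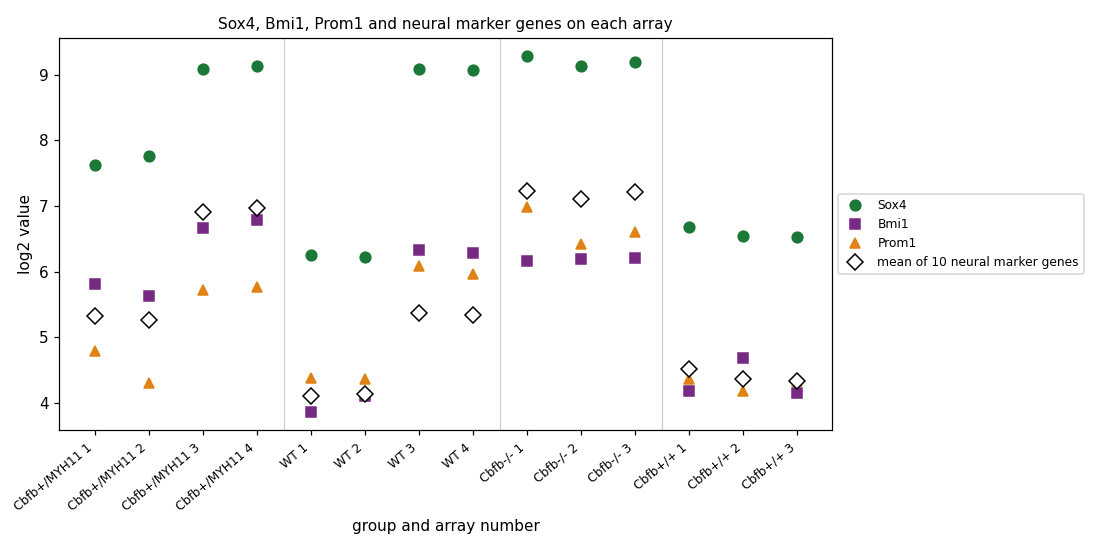
Log2 signal of the leading probe sets of Sox4, Bmi1 and Prom1, and the mean over 10 neural marker genes, on each of the 14 arrays, by group and array number. Sox4, Bmi1 and Prom1 on WT arrays 3 and 4 lie 2.84, 2.32 and 1.66 above WT arrays 1 and 2, and the neural marker list moves the same way.

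Genes that act beside the nuclear members were read from lists. Polycomb complexes 1 and 2, the chromatin repressors to which Bmi1 belongs, were read as a list of 19 measured genes besides Bmi1. The list holds subunits and also Cdkn2a, which Bmi1 represses and which was dim and not called (-0.20 and -0.45). Within the array pairs the fusion change of Cdkn2a was -0.50 and 0.10. Of the 19 genes 6 rose and 0 fell with the fusion, and 9 rose and 1 fell in Cbfb-/- blood. All genes gave 14.3% higher and 4.12% lower with the fusion, and 9.09% higher and 3.7% lower in Cbfb-/- blood. Of the 19 genes 13 were not dim. Among probe sets that are not dim, 35.3% were called in either direction with the fusion and 24.6% in Cbfb-/- blood. The 6 genes called with the fusion were all not dim, so 6 of 13 stand beside that 35.3%. In Cbfb-/- blood all called genes of the list except Pcgf2 were not dim. The median change of the 19 genes was 0.31 with the fusion and 0.60 in Cbfb-/- blood. Over all genes it was -0.11 and -0.05, and over probe sets that are not dim 0.27 and 0.13. With the fusion the smallest adjusted p-values were those of Suz12, a subunit of complex 2 (1.07, adjusted p = 6.34e-06), Pcgf5, a paralog of Bmi1 (1.23, adjusted p = 4.65e-05), and Phc3 (0.65, adjusted p = 7.82e-04). Within arrays 1 and 2 and arrays 3 and 4, Pcgf5 was at 0.75 and 1.72 and Phc3 at 0.47 and 0.83. After loss of Cbfb they were those of Cbx2, a reader of methylated histone H3 (1.12, adjusted p = 6.04e-04), Ezh1, a methyltransferase that fell (-1.12, adjusted p = 0.00129), and Phc2 (1.38, adjusted p = 0.00186). Of 8 other Sox genes, 1 rose and 1 fell with the fusion, Sox6 (0.85) and Sox18 (-0.64), and 2 rose in Cbfb-/- blood, Sox11 (1.98, adjusted p = 0.0056), a SoxC paralog of Sox4, and Sox9 (1.15, adjusted p = 0.00177).

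Tgm2, transglutaminase 2, cross-links proteins in the presence of calcium and also binds GTP. It had 9.06, 9.05, 8.98 and 9.01 on Cbfb+/MYH11 arrays, against 6.54, 6.80, 7.16 and 7.19 on WT arrays. It had 7.25, 7.07 and 7.17 on Cbfb-/- arrays, against 7.64, 7.64 and 7.62 on Cbfb+/+ arrays. The 4 fusion arrays lay within 0.1 of each other and above all 10 other arrays, and the Cbfb-/- arrays lay just below all 3 arrays of their littermates. The rise with the fusion was 2.10 (1.83 to 2.37, limma, adjusted p = 4.86e-08), or 4.30-fold (3.56 to 5.18). Without Cbfb the change was -0.47 (-0.78 to -0.16, adjusted p = 0.0446), which is under the fold floor and was not called, although after quantile normalization it was (-0.69, adjusted p = 0.00169). The 2 effects differed by 2.57 (2.16 to 2.99, adjusted p = 1.37e-06).

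The rise with the fusion was present in both array pairs, at 2.38 within arrays 1 and 2 (adjusted p = 8.31e-10) and 1.82 within arrays 3 and 4 (adjusted p = 2.39e-08), and 8.76% of all probe sets were called with 1 sign in both. Of the 6 Tgm2 probe sets, the 5 that are not dim rose, by 1.20 to 2.41. The second brightest, 1433428_x_at, had 8.40, 8.61, 8.77 and 8.71 on Cbfb+/MYH11 arrays, against 5.71, 6.04, 6.48 and 6.60 on WT arrays. These 5 were the members' only probe sets whose Cbfb+/MYH11 and WT arrays did not overlap, 5 of 27, where 26.1% of all probe sets did not overlap. In Cbfb-/- blood the probe sets 1433428_x_at (-0.68, adjusted p = 0.0257) and 1437277_x_at (-0.81, adjusted p = 0.0118) fell. The sixth, 1438942_x_at, lay between 2.57 and 3.27 on all arrays and was called in neither.

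Markers of mast cells and basophils were read beside Tgm2. Over 12 measured genes their mean log2 signal was 6.05 to 6.22 on Cbfb+/MYH11 arrays, against 4.25 to 4.70 on WT arrays, and 3.94 to 4.12 on Cbfb-/- arrays, against 4.47 to 4.53 on Cbfb+/+ arrays. With the fusion 6 of the 12 rose, led by Cd200r3 (6.05, adjusted p = 3.59e-10) and Ms4a2 (4.83, adjusted p = 1.7e-09), and 0 fell. Among those that rose was the mast cell protease Cpa3 (2.59, adjusted p = 3.14e-08). The other 6, Fcer1a and the remaining listed proteases among them, were dim and not called, at -0.47 to 0.09. In WT blood the list was lower on arrays 3 and 4 (4.25 and 4.28) than on arrays 1 and 2 (4.70 and 4.67), while Tgm2 was higher there. Without Cbfb 3 fell and 0 rose. The part of these cells in the Tgm2 signal was not tested. Of 4 other transglutaminase and factor XIII genes, F13a1, the plasma transglutaminase chain of platelets and macrophages, fell in both mutants, by 4.23 with the fusion (adjusted p = 7.45e-05) and by 2.73 in Cbfb-/- blood (adjusted p = 0.0128), and the other 3 were not called. Within arrays 1 and 2 and arrays 3 and 4 the fusion changes of F13a1 were -5.49 and -2.96.

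**Figure D3:**
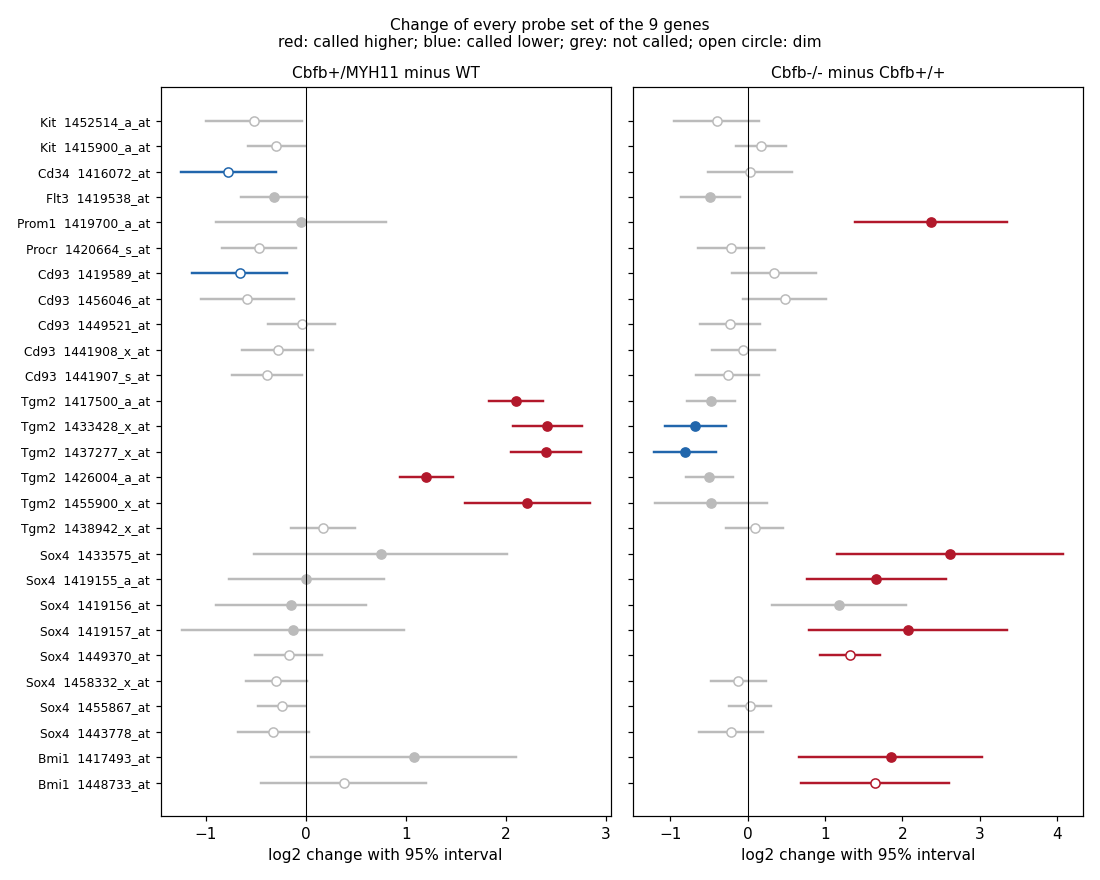
Log2 change of each of the 27 probe sets with its 95% interval from limma, for Cbfb+/MYH11 minus WT on the left and Cbfb-/- minus Cbfb+/+ on the right. Red is called higher, blue called lower, grey not called, and open circles are dim probe sets. Among leading probe sets Tgm2 is called at 2.10 with the fusion, Sox4, Prom1 and Bmi1 at 2.62, 2.38 and 1.85 in Cbfb-/- blood, and Cd34 and Cd93 at -0.78 and -0.66 with the fusion.

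The growth factor receptors were low. Flt3, the receptor of multipotent and lymphoid progenitors, had 6.42, 6.13, 5.77 and 5.96 on Cbfb+/MYH11 arrays, against 6.74, 6.44, 6.18 and 6.20 on WT arrays. It had 5.73, 5.88 and 5.51 on Cbfb-/- arrays, against 6.07, 6.33 and 6.17 on Cbfb+/+ arrays. The fusion and WT arrays overlapped, and all Cbfb-/- arrays were below all Cbfb+/+ arrays. Neither change was called, at -0.32 with the fusion (-0.65 to 0.01, adjusted p = 0.135) and -0.48 in Cbfb-/- blood (adjusted p = 0.0839). Within each array pair the fusion change was again -0.32, and neither was called.

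Kit, the receptor of stem cell factor, was dim on both of its probe sets, with 0 of 14 arrays at 6 or above. The brighter had 4.66, 4.48, 4.52 and 4.76 on Cbfb+/MYH11 arrays, against 4.71, 4.49, 5.64 and 5.66 on WT arrays. On Cbfb-/- arrays it had 4.52, 4.54 and 4.28, against 4.72, 5.09 and 4.73 on Cbfb+/+ arrays. WT arrays 3 and 4 alone stood higher in the first cross, and the Cbfb-/- arrays were all a little below their littermates' arrays. The changes were -0.52 (-1.0 to -0.04, adjusted p = 0.102) and -0.40 (-0.96 to 0.15, adjusted p = 0.329), and the fusion change was called without WT array 2 (-0.73, adjusted p = 0.0194). Within arrays 1 and 2 it was -0.02 (adjusted p = 0.914), and within arrays 3 and 4 Kit fell by 1.01 (adjusted p = 1.64e-04). The other Kit probe set, 1415900_a_at, lay between 4.04 and 4.69 on all arrays. It was at -0.30 with the fusion (adjusted p = 0.112) and, against the direction of the first, at 0.17 in Cbfb-/- blood (adjusted p = 0.496), with overlapping arrays and a difference between the pair effects of -0.17 (adjusted p = 0.818).

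Of 18 measured genes of KIT and FLT3 ligands and signalling, 2 rose and 2 fell with the fusion, and 3 rose and 0 fell in Cbfb-/- blood. That is 11.1% higher and 11.1% lower with the fusion and 16.7% higher in Cbfb-/- blood, beside 14.3%, 4.12% and 9.09% over all genes, so the share that rose with the fusion is not above the background. With the fusion Stat5a, a transcription factor activated by both receptors, fell by 1.18 (adjusted p = 9.43e-05), while Gab1, an adaptor, rose by 1.21 (adjusted p = 3.01e-04) and Fyn, a Src family kinase, by 1.36 (adjusted p = 3.51e-04). Gab1 was at 1.5 and 0.92 within the array pairs. Without Cbfb the 3 that rose were Plcg1 (0.99, adjusted p = 0.00329), Fyn (0.99, adjusted p = 0.0174) and Cblb, a ubiquitin ligase of activated receptors (1.07, adjusted p = 0.0317). The ligand gene Kitl was dim, at -0.39 and -0.21, and was called in neither mutant. Its fusion change within the array pairs was -0.52 and -0.26.

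The remaining surface proteins were all dim. Cd34, a sialomucin of progenitors and endothelium, had 3.89, 3.77, 3.93 and 4.22 on Cbfb+/MYH11 arrays, against 4.21, 4.22, 5.08 and 5.41 on WT arrays. On Cbfb-/- arrays it had 5.15, 5.14 and 4.91, against 5.14, 4.98 and 4.99 on Cbfb+/+ arrays. WT arrays 1 and 2 were at the level of the highest fusion array, and the groups overlapped. Cd34 fell by 0.78 with the fusion (-1.25 to -0.30, adjusted p = 0.0188), which is 1.71-fold, and was at 0.03 in Cbfb-/- blood (-0.52 to 0.57, adjusted p = 0.956). The fall was 0.38 and under the fold floor within arrays 1 and 2, and 1.17 within arrays 3 and 4 (adjusted p = 2.42e-05). It was not called without WT array 4 (-0.55), after quantile normalization (-0.65, adjusted p = 0.0677) or with arrays centred on their medians (-0.67, adjusted p = 0.0552). The difference from the Cbfb-/- effect, -0.81 (adjusted p = 0.189), was called with the replicate block (adjusted p = 0.0443).

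Cd93, a C-type lectin of early progenitors, myeloid cells and endothelium, had 4.58, 4.84, 4.77 and 5.16 on Cbfb+/MYH11 arrays, against 4.97, 5.07, 6.09 and 5.88 on WT arrays. On Cbfb-/- arrays it had 5.68, 5.32 and 5.69, against 5.06, 5.27 and 5.34 on Cbfb+/+ arrays. Only WT array 3 reached 6, and in both crosses the arrays overlapped. Cd93 fell by 0.66 with the fusion (-1.14 to -0.19, adjusted p = 0.0397) and was at 0.34 in Cbfb-/- blood (adjusted p = 0.41). This call was lost without any 1 of 9 of the 14 arrays (adjusted p up to 0.091), after quantile normalization (-0.61, adjusted p = 0.0658) and with centred arrays (-0.55, adjusted p = 0.113). The fall was 1.02 within arrays 3 and 4 (adjusted p = 3.29e-04), against -0.31 within arrays 1 and 2 (adjusted p = 0.166). The difference from the Cbfb-/- effect, -1.0 (adjusted p = 0.0907), was called with the replicate block (adjusted p = 0.0266). The 4 other Cd93 probe sets, all dim, were not called.

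Procr, the endothelial receptor of protein C and a marker of long-term stem cells, had 4.18, 3.86, 4.58 and 4.66 on Cbfb+/MYH11 arrays, against 4.76, 5.18, 4.63 and 4.60 on WT arrays. On Cbfb-/- arrays it had 5.39, 5.35 and 5.25, against 5.61, 5.30 and 5.70 on Cbfb+/+ arrays. The arrays of each comparison overlapped, and all 6 arrays of the Cbfb-/- cross were above all 8 of the other. Neither change was called, at -0.47 (-0.84 to -0.10, adjusted p = 0.0603) and -0.21 (adjusted p = 0.52), and the first was called without Cbfb+/MYH11 array 4 (-0.59, adjusted p = 0.0357). Its fusion effect lay in the other pair, with a fall of 0.95 within arrays 1 and 2 (adjusted p = 2.73e-04) and a change of +0.01 within arrays 3 and 4 (adjusted p = 0.977). Of 4 measured genes of the protein C pathway, F2r, the thrombin receptor, rose with the fusion (1.99, adjusted p = 1.82e-05), F3, tissue factor, which was dim, fell (-0.70, adjusted p = 0.0369), and 0 were called in Cbfb-/- blood. Within the array pairs F2r was at 2.45 and 1.52 and F3 at -1.09 and -0.31.

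Endothelial markers were read beside Cd34, Cd93 and Procr, which endothelium carries too. Over 14 genes their mean log2 signal was 4.85 to 4.94 on Cbfb+/MYH11 arrays, against 5.14 to 5.35 on WT arrays, and 5.28 to 5.31 on Cbfb-/- arrays, against 5.14 to 5.24 on Cbfb+/+ arrays. With the fusion 2 rose and 4 fell. The smallest adjusted p-values (limma) were those of Vwf (-1.81, adjusted p = 4.75e-05), Sox18 (-0.64, adjusted p = 5.29e-04) and Egfl7 (0.61, adjusted p = 0.00145). Platelets also hold Vwf, which was at -2.32 and -1.30 within the array pairs, where Egfl7 was at 0.49 and 0.73. In Cbfb-/- blood 2 rose, Emcn (1.33) and Cdh5 (0.64), and 1 fell, again Vwf (-1.94). Of the 14 genes 3 were not dim. The part of endothelium in the values of the 3 members was not tested.

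**Figure D4:**
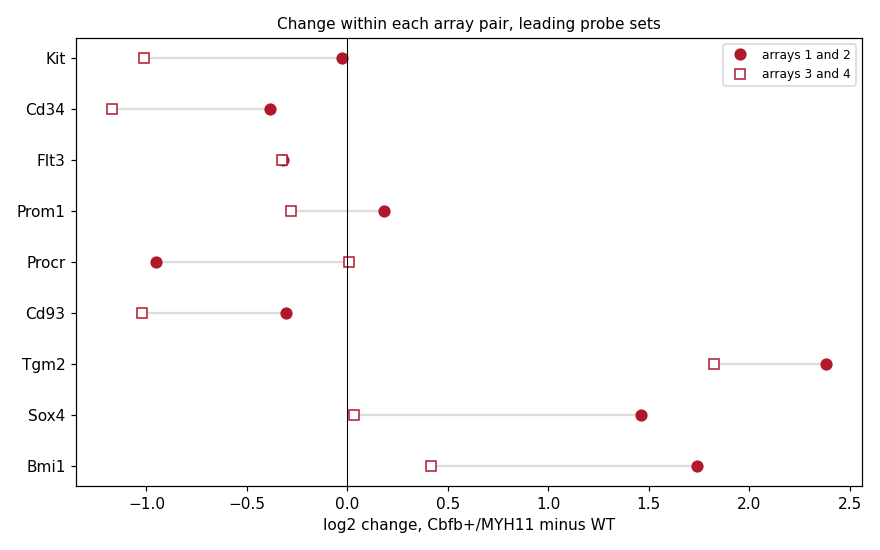
Log2 change of Cbfb+/MYH11 over WT within arrays 1 and 2 and within arrays 3 and 4, for the leading probe set of each measured member. Tgm2 is at 2.38 and 1.82 and Flt3 at -0.32 in both pairs, while Sox4 (1.46 and 0.03), Bmi1 (1.74 and 0.42), Kit (-0.02 and -1.01) and Procr (-0.95 and 0.01) differ between them.

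Other surface and nuclear genes of stem and progenitor cells were set beside the members. Of 16 other surface genes, 6 of which were not dim, 1 rose and 5 fell with the fusion, and 1 rose and 5 fell in Cbfb-/- blood. In each that is 6.25% higher and 31.2% lower. Over all genes it was 14.3% and 4.12% with the fusion, and 9.09% and 3.7% in Cbfb-/- blood. With the fusion the smallest adjusted p-values were those of Cd44, a hyaluronan receptor (-1.20, adjusted p = 1.13e-04), Ptprc, the leukocyte antigen CD45 (-2.30, adjusted p = 2.86e-04), and Cd9 (-1.58, adjusted p = 5.11e-04). Cd44 and Ptprc were dim, and within the array pairs Ptprc was at -3.33 and -1.28 and Cd9 at -2.35 and -0.81. After loss of Cbfb they were those of Itga4 (-0.99, adjusted p = 5.44e-04), Emcn, dim and also on the endothelial list (1.33, adjusted p = 0.001) and Itga2b, integrin alpha IIb of megakaryocytes and first blood progenitors (-1.66, adjusted p = 0.00115). Macrophage markers, some of whose cells carry Ptprc and Cd44, averaged 4.92 to 5.05 on Cbfb+/MYH11 arrays, against 7.32, 7.56, 5.69 and 5.71 on WT arrays 1 to 4, and 4.97 to 5.23 on Cbfb-/- arrays, against 7.02 to 7.10 on Cbfb+/+ arrays, and 7 of 10 fell with the fusion and 8 of 10 in Cbfb-/- blood. The part of macrophages in the falls of these surface genes was not tested.

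Of 16 stem and progenitor transcription factors, 9 of which were not dim, 3 rose and 0 fell with the fusion, and 6 fell and 0 rose in Cbfb-/- blood. The 18.8% that rose with the fusion is near the 14.3% over all genes. The 37.5% that fell in Cbfb-/- blood stands beside 3.7% over all genes. Gata2 (3.51, adjusted p = 4.86e-08), Lmo2 (1.63, adjusted p = 1.15e-07) and Myb (1.35, adjusted p = 1.22e-05) rose with the fusion, and Gata2 is also on the mast cell and basophil list. Without Cbfb, Myb (-1.57, adjusted p = 8.02e-05), Lyl1 (-0.84, adjusted p = 0.00205) and Lmo2 (-0.71, adjusted p = 0.00237) fell. The members Sox4 and Bmi1 did not share that direction. The Ly6 family, to which Ly6a belongs, had 7 measured genes, of which 0 rose and 2 fell with the fusion, Ly6e (-2.14, adjusted p = 8.82e-05) and the dim Ly6f (-0.68, adjusted p = 0.023), and 0 were called in Cbfb-/- blood. Within the array pairs Ly6e was at -2.80 and -1.48 and Ly6f at -0.96 and -0.39.

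By group mean Tgm2 was highest in Cbfb+/MYH11 (9.03 ± 0.03, SD, n = 4), then Cbfb+/+ (7.63 ± 0.01, n = 3), Cbfb-/- (7.16 ± 0.09, n = 3) and WT (6.92 ± 0.31, n = 4). Its first 3 groups did not overlap, and Cbfb-/- and WT did. Prom1 was highest in Cbfb-/- (6.67 ± 0.29), then WT (5.20 ± 0.96), Cbfb+/MYH11 (5.15 ± 0.72) and Cbfb+/+ (4.29 ± 0.10), with only Cbfb-/- apart from its neighbour. For Sox4 the order was Cbfb-/- (9.20 ± 0.08), Cbfb+/MYH11 (8.40 ± 0.82), WT (7.66 ± 1.64) and Cbfb+/+ (6.58 ± 0.08), and all neighbours overlapped. Bmi1 was at 6.22 ± 0.58 in Cbfb+/MYH11, 6.19 ± 0.03 in Cbfb-/-, 5.14 ± 1.34 in WT and 4.34 ± 0.30 in Cbfb+/+, again with all neighbours overlapping. The remaining members differed less in mean, and among them only Procr had neighbouring groups apart, Cbfb-/- above WT. For Sox4 and Bmi1 the SDs were wider in the first cross, whose arrays fall into pairs.

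The genes whose signals ran most alike over the 14 arrays were sought among 7392 genes that were not dim, by Pearson's r, as a description. These arrays share pairs, crosses and genotypes, so r is not a measure of independent agreement. For Sox4 they were Nrep (r = 0.994), Slc39a10 (0.989) and Sbk1 (0.988), and for Bmi1 Nckap1 (0.987), Ubqln1 (0.985) and Mprip (0.984). For Prom1 they were Nr2f1 (0.97), Ptprs (0.97) and Trim35 (0.967). For Tgm2 they were Pon2 (0.989), Ptdss2 (0.982) and Ensa (0.979), and Pon2 averaged 7.23 on Cbfb+/MYH11 arrays against 5.04 on WT arrays. For Flt3 they were Slc31a2 (0.924), Klk1 (0.919) and Hspbap1 (0.916).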

How the data were processed

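Biotin-labelled total RNA of embryonic blood was hybridized to Affymetrix mouse arrays, per the labels. The deposited log2 values of 45101 probe sets on 14 arrays are RMA values from Affymetrix Expression Console, per the submitters' processing notes, with versions not given in the sources used here. They were taken as they stand, with no further normalization. Leaving out 64 array controls, 45037 probe sets were fitted with limma 3.58.1 (R 4.3.3; lmFit, contrasts.fit, eBayes), in 1 model of 4 groups (residual degrees of freedom 10, prior 4.65). P-values were adjusted by Benjamini and Hochberg over all of them. Platform annotation gave 1 symbol to 34945 probe sets, several to 932 and none to 9160. Probe sets with several symbols were not named. Precision is limited by the number of arrays, which are technical replicates by label, and by the unknown number of pools behind them.

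The 10 members and all lists were chosen with earlier results of these data known. Named were every member, up to 3 genes per list and comparison with the smallest adjusted p, and the 3 most alike genes of each member that is not dim. Kitl was named because it encodes the ligand of a member, after its values were seen. Same-numbered arrays of the first cross correlated (0.41 to 0.522), those of the second did not pair (0.00939 to 0.0344). In the first cross, differently numbered arrays of the same pair correlated about as much (0.424 to 0.512). These values therefore do not single out pairing by number, which the replicate block assumes. The alternatives were filters, scalings, blocks, array pairs, putative pools, the fold floor, the 2 groups alone and 1 array left out. The fit was tested on simulated data in which arrays varied independently, without pairs or pools. That test therefore does not bear on the array pairs or on the spread between pools.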

Additional observations from a re-analysis of the deposited data

Results flagged for a closer look

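The effects of the fusion and of the loss of Cbfb differed for 2 of 9 members. The difference was tested in limma and adjusted over all probe sets, of which 7.52% were called. For Tgm2 the fusion effect exceeded the Cbfb-/- effect by 2.57 (adjusted p = 1.37e-06), with higher values on 4 of 4 Cbfb+/MYH11 arrays than on any WT array and lower ones on 3 of 3 Cbfb-/- arrays than on any Cbfb+/+ array. For Prom1 the difference was -2.42 (adjusted p = 0.023), with 3 of 3 Cbfb-/- arrays above every Cbfb+/+ array and overlapping arrays in the other cross. Of all probe sets, 39.9% did not overlap between Cbfb-/- and Cbfb+/+ arrays, and 26.1% between Cbfb+/MYH11 and WT arrays. The Prom1 call was kept in 9 of 14 fits with 1 array left out (limma, adjusted p up to 0.0646). On arrays averaged to 6 putative pools no member was called for this difference.

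The fusion effect within arrays 3 and 4 differed from that within arrays 1 and 2 for 5 members, where 6.58% of all probe sets differed in this way. The difference was -1.43 for Sox4 (adjusted p = 3.49e-05), -1.32 for Bmi1 (adjusted p = 0.00172), -0.99 for Kit (adjusted p = 0.00955), -0.79 for Cd34 (adjusted p = 0.0274) and 0.96 for Procr (adjusted p = 0.0163). Each rests on 2 arrays per genotype and pair, and on the leading probe set alone. The other Sox4 probe sets that are not dim differed by -0.21, -0.07 and -0.69 (limma, adjusted p = 0.766, 0.93 and 0.271). The dim second probe sets of Bmi1 and Kit differed by -0.09 (adjusted p = 0.934) and -0.17 (adjusted p = 0.818). None of these was called, and Cd34 and Procr have only 1 probe set each. For Sox4, Bmi1, Kit and Cd34 the step from arrays 1 and 2 up to arrays 3 and 4 was wider in WT than in Cbfb+/MYH11 blood, and for Procr Cbfb+/MYH11 arrays 1 and 2 were the low ones.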

How the results depend on the processing

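No called member reversed its direction under any alternative, and 13 of 678 member values changed sign, none of them called. Averaging the arrays to 6 putative pools (residual degrees of freedom 2) left 58 of 6071 probe sets called with the fusion, and 0 of 4363 in Cbfb-/- blood and 0 of 3385 for the difference of effects (limma). At an unadjusted p under 0.05 those pools gave 6306, 1728 and 1924 probe sets and 1 of 9 members each, but 0 members were called in any of the comparisons. The rise of Tgm2 was then at an adjusted p of 0.0633.

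One probe set per gene with the filter at 6 tests fewer features and gave 2671, 1935 and 1548 calls. Without the fold floor 11422 were called with the fusion. For the difference of effects the replicate block gave 5085 calls, the array pair block 5870, arrays 1 and 2 alone 6467 and arrays 3 and 4 alone 6817. Leaving out 1 array gave 2879 to 5015 calls in Cbfb-/- blood. Calls with the fusion were 78.2% higher ones, 61.4% after quantile normalization and 89% with centred arrays, and in Cbfb-/- blood 68.7, 55.3 and 75%. Centring moved the median fusion change of all probe sets from -0.11 to 0.00.

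Members called with the fusion (3) fell to 1 with the filter at 6, 1 probe set per gene, quantile normalization, centred arrays or the 2 groups alone, and numbered 5 with the replicate block, which added Sox4 and Bmi1, or the array pair block. For the difference of effects (2) they numbered 5 with the replicate block, which pairs arrays by number, 5 with the array pair block, 4 within arrays 1 and 2, 7 within arrays 3 and 4, and 1 to 3 without 1 array. In Cbfb-/- blood (3) they numbered 1 to 3 without 1 array, because Sox4 (adjusted p = 0.0539 to 0.0649) and Bmi1 (0.0686 to 0.11) lost their calls without any 1 of the 6 arrays of that cross. Prom1 kept its call there without any 1 array. With only the 2 groups of that cross compared, all 3 kept their calls. Where no construction shows it, the cause was not tested. Dim signals limit Kit, Cd34, Procr and Cd93.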
